A study of Mus musculus with 6 samples.

Results

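The genes described here are 10 mouse genes that mark resident tissue macrophages (Lyve1, Timd4, Cd163, Mrc1, Folr2, Cd209f, F13a1, Cbr2, Vsig4 and Retnla), chosen by name and found in the count data through their Ensembl identifiers in GENCODE M21 (genome build GRCm38). All 10 were found among 54532 genes, and all 10 were among the 15751 genes that had enough counts to be tested. RNA-Seq was performed on the epididymal fat, the visceral depot beside the epididymis, of untreated male C57BL/6J mice. The 3 ND libraries (ND1 to ND3) came from mice given a normal diet with 4.5% fat, and the 3 HFD libraries (HFD1 to HFD3) from mice given a high-fat diet with 60% fat. Mice were placed on their diet when 4 weeks old and kept on it for 16 weeks, and no group carried an engineered allele. The labels do not say whether a library holds 1 mouse or a pool, so the p-values measure the spread between these libraries, which may be partly technical. Each library held between 16996896 and 18859320 counts.

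Macrophages live in every fat depot and clear dying cells, lipid and debris. In lean fat most of them are resident cells, which lie along vessels and between adipocytes, carry scavenger and lectin receptors such as CD163 and CD206, and include a long-lived set marked by LYVE1 and TIM4. In obesity, monocytes enter the fat and become further macrophages, many of them around dying adipocytes, and these carry fewer of the resident markers. The receptors CD206, CD163, LYVE1, folate receptor beta and CD209f take up or bind sugars, haemoglobin, hyaluronan, folate or glycans. TIM4 binds phosphatidylserine on apoptotic cells, and VSIG4 binds complement-coated particles. F13a1 and Cbr2 encode enzymes, and Retnla encodes the secreted protein RELM alpha (FIZZ1), a classical target of interleukin-4 and interleukin-13.

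The 2 promoter stretches below are shown for Retnla and Timd4, the members with the largest negative fold changes on HFD. The bases were copied 5′ to 3′ from the RefSeq promoter table (GRCm38.p6), which had an entry for 9 of the 10 members, and they end before the first annotated exon base. Capitals mark matches to 4 motifs searched on both strands, namely the STAT6 pattern (TTC and GAA with any 4 bases between them), the PU.1 pattern GAGGAAGT, the C/EBP pattern TTGCNNAA and the MAF half-site TGCTGAC. Both lie on the + strand.
Retnla, chr16:48842359-48842550: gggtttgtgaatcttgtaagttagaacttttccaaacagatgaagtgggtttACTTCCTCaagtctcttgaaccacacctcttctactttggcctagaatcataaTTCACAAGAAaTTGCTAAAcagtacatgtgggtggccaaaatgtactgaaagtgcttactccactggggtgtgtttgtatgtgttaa
Timd4, chr11:46810549-46810798: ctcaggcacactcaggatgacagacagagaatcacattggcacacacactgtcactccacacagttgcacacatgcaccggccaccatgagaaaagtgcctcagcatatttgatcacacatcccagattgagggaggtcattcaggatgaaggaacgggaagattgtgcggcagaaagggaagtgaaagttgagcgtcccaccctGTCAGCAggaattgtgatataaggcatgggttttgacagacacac

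In the Retnla stretch the capitals are, from left to right, a PU.1, a STAT6 and a C/EBP match. The STAT6 match lies at bases -145 to -136 from the RefSeq start and the C/EBP match at -134 to -127, so they are separated by 1 base. A MAF half-site match at -48 to -42 lies beyond the bases printed. The Timd4 capitals are a MAF half-site match at -45 to -39. The member genes had 11 promoter windows, of which 2 held the STAT6 pattern, against 6.95% of 32851 windows of the same length, and 3 held the MAF half-site, against 4.67%. The PU.1 pattern was found in 2 of the 11, against 3.2%, and the C/EBP pattern in 1, against 10.8%. The second STAT6 match, the second PU.1 match and the remaining MAF match lay just after the starts of Cbr2, F13a1 and Cbr2, respectively. These matches describe letters in the windows, and binding was not measured.

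The levels of the members per transcript length differed widely in lean fat. FPKM, fragments scaled to transcript length and library size, were used for this, since they allow genes of different length to be compared. On ND, Retnla was by far the most abundant member at 867 ± 113 FPKM (SD, n = 3), followed by Cbr2 at 52.5 ± 7.22 FPKM. Cd209f at 33.1 ± 1.2 FPKM and F13a1 at 33.1 ± 1.39 FPKM could not be ordered, since their libraries overlapped. Mrc1 at 23.4 ± 0.695 FPKM and Lyve1 at 19 ± 2.39 FPKM came next. Folr2 at 14.8 ± 1.24 FPKM and Cd163 at 12.4 ± 2.37 FPKM overlapped each other. Timd4 at 3.19 ± 0.639 FPKM and Vsig4 at 1.11 ± 0.642 FPKM were the lowest, and each was apart from the gene above it. All other neighbours in the ND order were also apart.

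The order was different on HFD. Retnla was still first, at 317 ± 262 FPKM (SD, n = 3), and its lowest HFD library was above the highest library of any other member. Mrc1 had moved to second place at 42.4 ± 14.8 FPKM, and Vsig4 at 2.80 ± 0.612 FPKM stood above Timd4 at 1.32 ± 0.719 FPKM without overlap. From Mrc1 down to Cd163, which was at 11.8 ± 2.26 FPKM, every gene overlapped its neighbour, so the middle of the HFD order is not resolved.

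**Figure D1:**
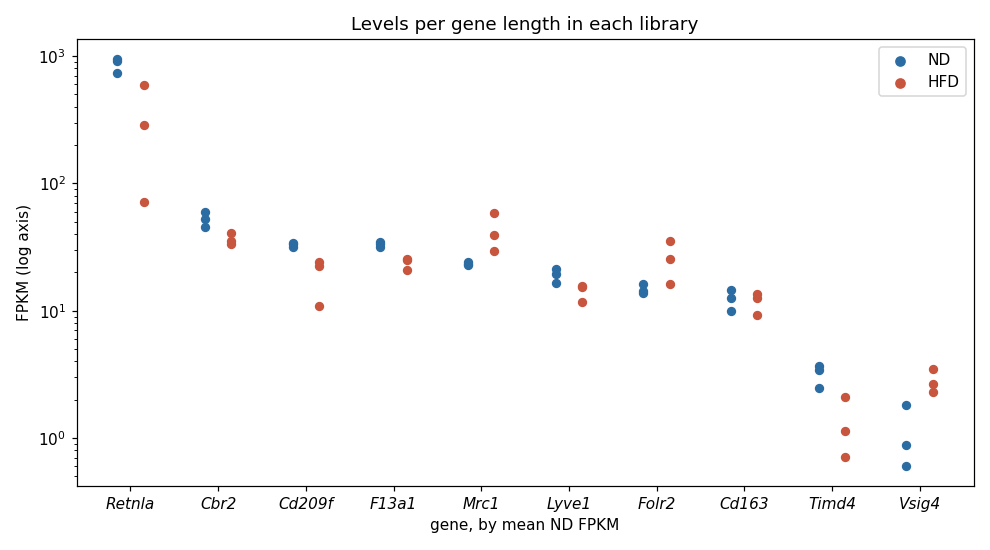
FPKM of the 10 resident macrophage genes in each library on a log axis, ordered by the ND mean (blue, 3 ND libraries; red, 3 HFD libraries). Retnla is at 737 to 944 FPKM on ND and 71.3 to 593 on HFD, whereas Timd4 and Vsig4 are below 4 FPKM in every library and change places between the diets.

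HFD was then compared with ND to ask how the resident genes stood in obese fat. The members did not move as a block. Of the 10, 3 had a positive log2 fold change (Mrc1, Folr2 and Vsig4) and 7 a negative one, with a median of -0.43 beside 0.0074 over all genes tested. By edgeR's quasi-likelihood test with Benjamini-Hochberg adjustment over all genes (adjusted p under 0.05), 1 member was called lower on HFD, Cbr2, and 0 were called higher. Over all genes tested, 6.04% were called lower and 9.85% higher. At an unadjusted p under 0.05, 5 members were lower and 3 higher, where the shares of all genes were 15.3% and 18.7%. DESeq2 called 4 members lower (Timd4, Cd209f, F13a1 and Cbr2) and 3 higher (Mrc1, Folr2 and Vsig4), with 9.13% and 11.6% of all genes called. The diets did not overlap in CPM (counts scaled to library size by the TMM method) for 9 members, 6 lower and 3 higher. Non-overlapping values of these 2 kinds were found in 19.1% and 21.7% of all genes, respectively. Cd163 was the member whose diets overlapped in CPM, and in FPKM those of Folr2 overlapped as well. With the replicate number as a block in edgeR, 0 members were called, beside 4.46% of all genes lower and 7.51% higher. As these are whole-tissue libraries, fewer macrophages of a type and less RNA per macrophage cannot be told apart.

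**Figure D2:**
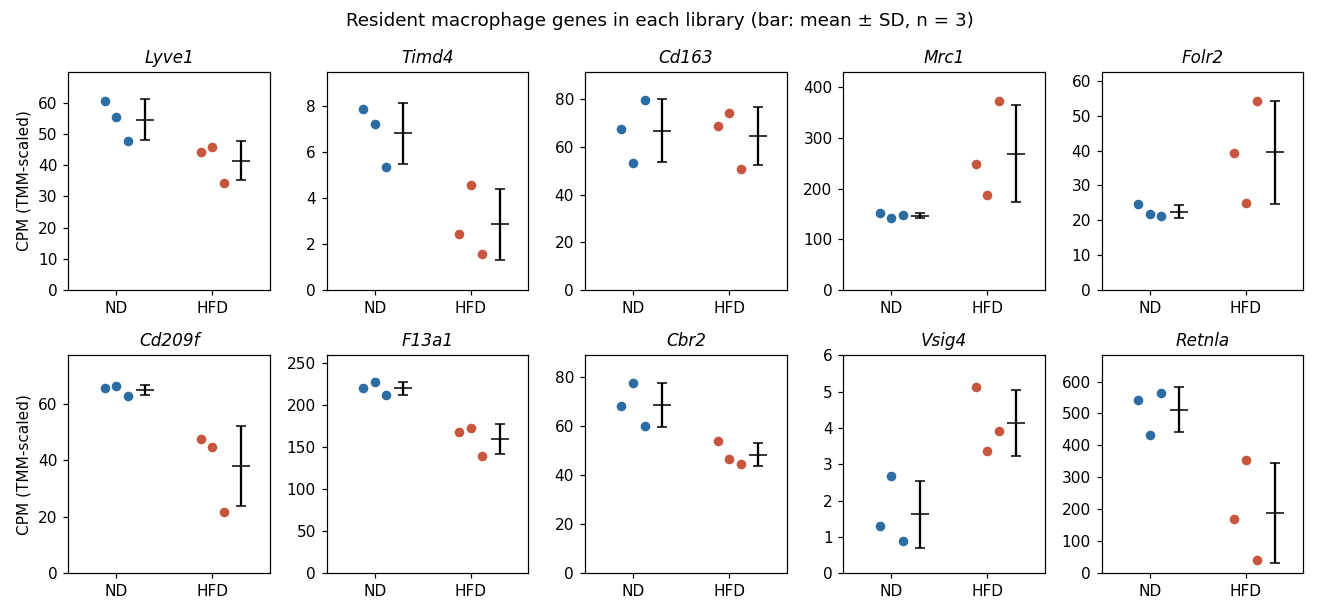
TMM-scaled CPM of each resident macrophage gene in the 3 ND (blue) and 3 HFD (red) libraries, with the mean ± SD beside the points and every axis starting at 0. Mrc1, Folr2 and Vsig4 lie higher on HFD, Cd163 overlaps, and the other 6 genes lie lower, with wide HFD spreads for Retnla, Cd209f, Mrc1 and Folr2.

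Among the endocytic receptors, Mrc1, which encodes the mannose receptor CD206 (chr2:14229392-14332057), was at 151, 143 and 148 CPM in ND1 to ND3 and at 249, 187 and 373 CPM in HFD1 to HFD3. Each HFD library was above all ND libraries, and the HFD libraries were spread far more widely, with a coefficient of variation of 35.2% against 2.97%. The log2 fold change was 0.87 (SE 0.25), and the adjusted p of edgeR's quasi-likelihood test was 0.0534, just above the threshold. It was 0.0073 with DESeq2, and 0.00894 with edgeR once HFD2, the lowest HFD library, was left out. No other of the 6 fits that left out 1 library called Mrc1, and its log2 fold change ran from 0.55 to 1.08.

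Folr2 encodes folate receptor beta (chr7:101839988-101857194) and was distributed like Mrc1 over the libraries. It was at 24.6, 21.8 and 21.3 CPM in ND fat and at 39.4, 24.9 and 54.2 CPM on HFD. HFD2 thus lay only just above the highest ND library in CPM. In FPKM it lay just below it, at 16.179 beside 16.186 in ND1, so the diets overlapped. The log2 fold change was 0.81 (SE 0.26, adjusted p = 0.0784 with edgeR). The adjusted p was 0.0371 with DESeq2 and 0.00616 with edgeR without HFD2. That was the only 1 of the 6 fits without a library to call Folr2, with log2 fold changes from 0.50 to 1.06. Of the 50-base stretches of Folr2 transcripts, 52.6% are also found in Gm10602, which lies on the opposite strand and had between 33 and 57 counts per library beside 375 to 941 for Folr2. Strand-specific counting is not stated, so reads of the pair cannot be told apart and the value of Folr2 is uncertain to that extent.

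Cd163, the receptor for haptoglobin-haemoglobin complexes (chr6:124304656-124330527), was the flattest member. Its CPM values were 67.5, 53.1 and 79.7 on ND and 68.7, 73.9 and 50.7 on HFD. The log2 fold change was -0.052 (SE 0.20, adjusted p = 0.878, edgeR) and became 0.063 without ND3 and 0.080 without HFD3, so no direction can be given for it.

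Lyve1 encodes a hyaluronan receptor (chr7:110850607-110863239) that lymphatic endothelium carries as well. Its level was 60.5, 55.5 and 47.7 CPM in ND fat and 44.3, 45.7 and 34.2 CPM on HFD. The HFD libraries were all below the ND libraries, but by little. With a log2 fold change of -0.40 (SE 0.15), neither edgeR (adjusted p = 0.117) nor DESeq2 (adjusted p = 0.123) called Lyve1. Of 10 lymphatic endothelial markers, 2 were called lower on HFD (Nr2f2 and Gja4) and 0 higher by edgeR. Their fold changes were negative for 9 of the 10, with a median of -1.11, and 5 were lower at an unadjusted p under 0.05 as well as by DESeq2. Their summed level was 158 to 221 CPM in ND fat and 116 to 157 CPM on HFD. Prox1, the transcription factor that defines lymphatic endothelium, was at 4.10, 1.04 and 4.8 CPM in ND1 to ND3 and 0.219, 1.14 and 0.461 CPM in HFD1 to HFD3, with an adjusted p of 0.0653 by edgeR and 0.009 by DESeq2. Mmrn1 was at 38.3, 4.76 and 25.1 CPM in the ND libraries and 0.109, 8.85 and 1.09 CPM in the HFD libraries. Among the HFD libraries both were highest in HFD2, as Lyve1 was. The sum of the 10 markers did not have this order, at 116, 134 and 157 CPM in HFD1 to HFD3. It was highest in HFD3, where Lyve1 was lowest. Of the markers, Pdpn (28.4, 27.3 and 64.6 CPM in HFD1 to HFD3) and Thy1 (34.4, 28.4 and 55.8 CPM) were highest in HFD3. Flt4, Nr2f2, Gja4, Sema3d and Reln were, like Prox1 and Mmrn1, highest in HFD2, and Ccl21a was highest in HFD1. The part of lymphatic endothelium in the Lyve1 difference was not tested.

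Cd209f encodes a C-type lectin of the DC-SIGN family (chr8:4102787-4105835). It was tightly grouped on ND at 65.5, 66.2 and 62.8 CPM and was at 47.6, 44.7 and 21.7 CPM on HFD, where HFD3 was far below the others. The log2 fold change was -0.77 (SE 0.27, adjusted p = 0.0969, edgeR). DESeq2 gave an adjusted p of 0.0421, and edgeR gave -0.50 with an adjusted p of 0.024 when HFD3 was left out. The other fits that left out 1 library did not call Cd209f, and over all 6 it ran from -0.99 to -0.50. Since 29.8% of the 50-base stretches of Cd209f transcripts also occur in Cd209g, the split of reads between these lectin genes is uncertain.

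Of the receptors for dying cells and complement, Timd4 (chr11:46810800-46844332) was at 7.88, 7.25 and 5.35 CPM in ND fat and at 2.46, 4.58 and 1.56 CPM on HFD. In reads these were 107 to 146 counts on ND and 27 to 76 counts on HFD, and the diets did not overlap. The mean was 2.38-fold lower on HFD, with a log2 fold change of -1.25 (SE 0.41, adjusted p = 0.0776, edgeR). The adjusted p was 0.0237 with DESeq2 and 0.0135 with edgeR without HFD2, the highest HFD library. Timd4 was not called when any other library was left out, and the 6 log2 fold changes ran from -1.76 to -0.97.

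Vsig4, the complement receptor CRIg (chrX:96247203-96293438), was scarce, with 18 to 46 counts on ND and 56 to 94 counts on HFD. Its CPM values were 1.30, 2.67 and 0.900 on ND and 5.14, 3.37 and 3.92 on HFD. All HFD libraries were above all ND libraries. Vsig4 had a log2 fold change of 1.36 (SE 0.44, adjusted p = 0.0769, edgeR), the largest positive value among the members, and the adjusted p was 0.036 with DESeq2. Timd4 and Vsig4, both low receptors of phagocytic cells, thus had opposite signs.

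Among the enzymes, Cbr2, a carbonyl reductase (chr11:120729489-120732114), fell by 0.50 on the log2 scale (SE 0.14, adjusted p = 0.0485, edgeR), from 68.2, 77.7 and 59.9 CPM on ND to 53.8, 46.8 and 44.6 CPM on HFD. The diets did not overlap, and the lowest ND library was close to the highest HFD library. The call was lost in each of the 6 fits that left out 1 library, with adjusted p between 0.0561 (without ND3) and 0.139 (without ND1). Of Cbr2's 50-base stretches, 12.1% also occur in the pseudogene Gm11771, which had at most 1 count in any library.

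F13a1 encodes the A subunit of coagulation factor XIII, a transglutaminase (chr13:36867178-37050244). It was at 220, 227 and 212 CPM on ND and at 168, 172 and 140 CPM on HFD. The gap between the diets was wide relative to the spread within ND, but less so relative to that within HFD. The coefficients of variation were 3.40% on ND and 11.1% on HFD. F13a1 had a log2 fold change of -0.46 (SE 0.13) and missed the threshold with edgeR at an adjusted p of 0.0575. The adjusted p was 0.0112 with DESeq2 and 0.0451 with edgeR without HFD2, the highest HFD library. Without any other library F13a1 was not called, and the 6 log2 fold changes ran from -0.52 to -0.38. Platelets and monocytes also hold factor XIII A. Of the 6 platelet markers tested 1 was called higher by edgeR (Treml1), 2 by DESeq2 (Treml1 and Pf4) and 0 lower by either. Treml1 had 1, 0 and 0 counts in ND1 to ND3 and 30, 44 and 32 in HFD1 to HFD3. Pf4 was at 91.3, 57.3 and 112 CPM in HFD1 to HFD3, the order of Mrc1 and Folr2. Whether these 2 genes reflect platelets was not tested. The list of 10 summed to 62.5 to 72.0 CPM in ND fat and 75.4 to 137 CPM on HFD, and without Pf4, which carries most of it, to 12.3 to 15.2 and 15.4 to 25.1 CPM. None of the 10 monocyte markers was called in either direction by edgeR, where 1 had an unadjusted p under 0.05 and DESeq2 called 1 higher, and they summed to 1069 to 1268 CPM in ND fat and 1135 to 1397 CPM on HFD. Without Fn1, which carries most of that sum, the ranges were 307 to 335 and 310 to 340 CPM. The part of these cells in the F13a1 difference was not tested.

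Retnla (chr16:48842551-48844461) had the largest negative fold change among the members and the widest spread. Its level was 541, 433 and 563 CPM in ND fat and 171, 353 and 42.6 CPM on HFD. All HFD libraries were below all ND libraries, yet HFD2 and HFD3 differed by 8.29-fold. The mean was 2.71-fold lower on HFD, and the log2 fold change of -1.44 (SE 0.64) did not pass edgeR's test (adjusted p = 0.161) or DESeq2's (adjusted p = 0.19). Without HFD2 it was -2.26 with an adjusted p of 0.0289 by edgeR, and without HFD3 it was -0.98 with an adjusted p of 0.0896. No 50-base stretch of its transcripts was shared with another gene. Which cells of the fat carried the Retnla difference was not tested.

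The HFD libraries differed from each other in a recurring order. Lyve1, Timd4, Cd163, F13a1 and Retnla were highest in HFD2 and lowest in HFD3. Cd209f and Cbr2 were also lowest in HFD3 but highest in HFD1. Mrc1 and Folr2 had the reverse order, highest in HFD3 and lowest in HFD2, whereas Vsig4 was highest in HFD1 and lowest in HFD2. The 15 general macrophage markers took 0.6%, 0.425% and 0.990% of the counts of HFD1, HFD2 and HFD3, and between 0.176% and 0.204% in the ND libraries. Lyz2 alone made up between 42.4% (HFD1) and 47.9% (HFD3) of these marker counts. The 15 adipocyte markers summed to 26340, 39370 and 17360 CPM in HFD1, HFD2 and HFD3, and to between 39121 and 51779 CPM on ND. HFD2, with the smallest share of general macrophage markers among the HFD libraries, thus had an adipocyte sum inside the ND range. A large part of the ND sums is Cfd, which fell from 13634 ± 1938 to 1275 ± 1175 CPM (SD, n = 3 each). Its log2 fold change was -3.42 (SE 0.87, adjusted p = 0.0396, edgeR), so the sums do not measure adipocyte content alone. With 3 libraries per diet these orders are a description, and the part of tissue composition in the members' values was not tested.

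**Figure D3:**
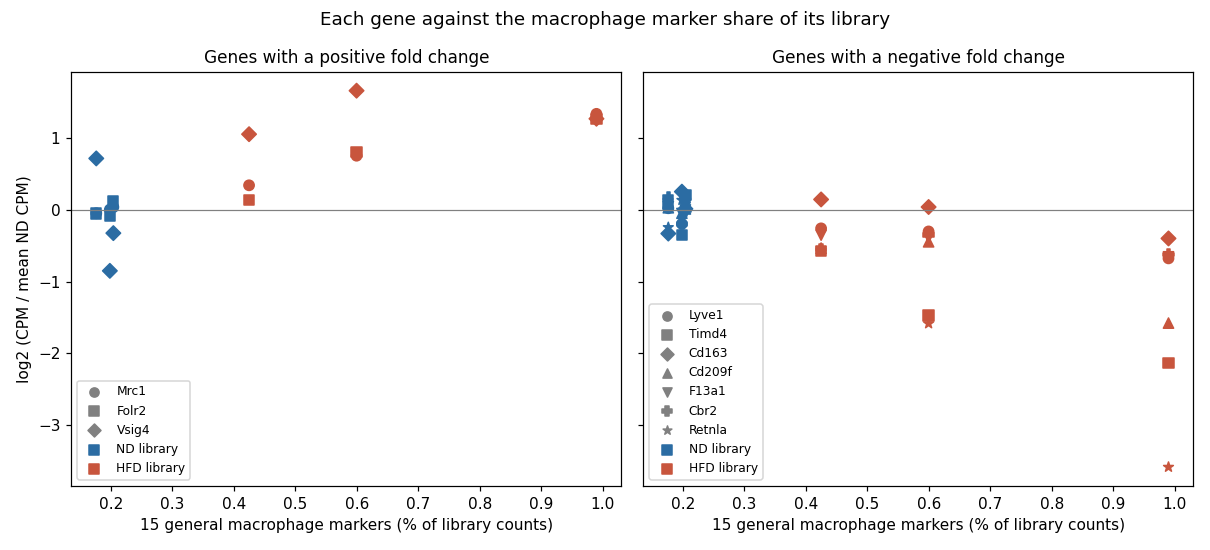
Each resident macrophage gene in each library, as log2 of its CPM over the ND mean, against the share of the library's counts taken by the 15 general macrophage markers (blue, ND; red, HFD). The HFD libraries lie at 0.425%, 0.6% and 0.990%, and the library at 0.990% has the highest Mrc1 and Folr2 and the lowest Lyve1, Timd4, Cd163, Cd209f, F13a1, Cbr2 and Retnla.

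Most of the general macrophage markers were much higher on HFD. Whether they are independent of residency was not tested. Of the 15 general markers, 13 were called higher, 0 lower, and their median log2 fold change was 1.93. F4/80 (Adgre1), the classical mouse macrophage antigen, rose from 45.9 ± 3.58 to 345 ± 149 CPM (SD, n = 3 each), or by 2.91 on the log2 scale (SE 0.32, adjusted p = 0.00583, edgeR). The lysosomal marker Cd68 rose by 3.72 on the log2 scale (SE 0.44, adjusted p = 0.00642, edgeR). Lysozyme (Lyz2) and the complement subunit C1qa rose by 1.78 and 0.79. Mertk, a receptor for apoptotic cells, differed between the diets by -0.022 on the log2 scale (adjusted p = 0.928, edgeR). Aif1 was not called either, with a log2 fold change of 0.23 (adjusted p = 0.571, edgeR).

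Set against the summed counts of these 15 markers, the members were at a smaller ratio on HFD. Retnla fell from 266 ± 37.8 to 38.4 ± 39.3 counts per 1000 macrophage marker counts (SD, n = 3 each), Lyve1 from 28.3 ± 2.47 to 7.18 ± 3.59, and Mrc1 from 76.4 ± 2.33 to 40.9 ± 3.58. Vsig4 was at 0.842 ± 0.486 and 0.684 ± 0.264 and its diets overlapped. In this unit 9 of the 10 members were lower in every HFD library and 0 were higher in every HFD library. The same held for 87.3% and 2.1% of all genes tested, as the divisor itself was higher on HFD. Of the 15 markers themselves, 4 were lower and 5 higher in every HFD library in this unit, so the divisor is not uniform. When the edgeR test was scaled to these markers it called the same 9 members lower, beside 84.3% of all genes, and 0 higher, beside 1.53%. The median log2 fold change on this scale was -2.02 for the members and -1.63 for all genes. The share of members called was near the background, so this scaling does not set them apart. Mrc1 (-0.90), Folr2 (-0.97) and Vsig4 (-0.30) had the smallest negative values of the members on it. The signs of Stab1, Siglec1, Clec10a, Csf1r, Csf2rb, Il10ra, Stat6, Lyz2, C1qa and Aif1, all positive with TMM in the text, also turned negative on this scale. Every value stayed above the median of all genes, with Aif1 the closest to it at -1.53.

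**Figure D4:**
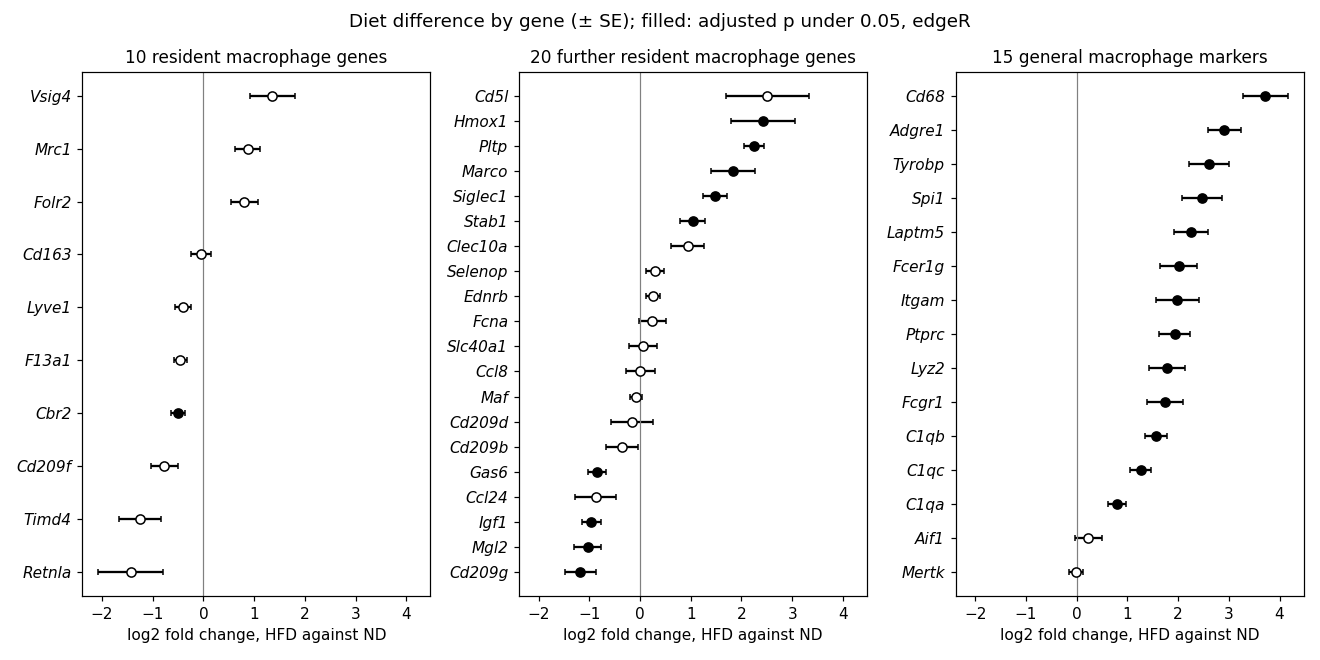
Log2 fold change of HFD against ND with its SE for the 10 resident macrophage genes, 20 further resident macrophage genes and 15 general macrophage markers, with filled points for an adjusted p under 0.05 by edgeR. The resident members run from -1.44 (Retnla) to 1.36 (Vsig4) with only Cbr2 filled, whereas 13 of the 15 general markers are filled and positive.

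Beyond the members, many calls lay near the threshold. Of 31 genes called by edgeR and followed across the alternative fits, Cbr2 included, 24 lost the call in at least 1 of the fits that left out a library, among them Stab1, Hmox1, Mgl2, Cd209g and Retn. The 7 called in all 6 such fits were Adgre1, Cd68, Pltp, Mrc2, Cd44, Csf2ra and Il10ra.

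The list of 20 further genes known from resident macrophages was also split. Of these, 5 rose and 4 fell, and 11 did not pass the test, with a median log2 fold change of 0.15. The scavenger receptor gene Stab1 rose from 128 ± 0.964 to 263 ± 95.3 CPM (log2 fold change 1.04, SE 0.25, adjusted p = 0.0344, edgeR), and like Mrc1 it was highest in HFD3 and lowest in HFD2. Pltp, a phospholipid transfer protein, the sialic acid receptor Siglec1, haem oxygenase (Hmox1) and the scavenger receptor Marco rose by 2.25, 1.48, 2.43 and 1.83, respectively. The Hmox1 value rested largely on HFD3, since its HFD libraries were at 144, 84.4 and 508 CPM, and its log2 fold change was 1.30 without HFD3 (adjusted p = 0.0129, edgeR).

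The genes of this list that fell included lectins and secreted factors. Mgl2, the CD301b lectin, fell from 70.4 ± 7.62 to 34.5 ± 12.8 CPM (log2 fold change -1.03, SE 0.26, adjusted p = 0.0406, edgeR). Its neighbour in the lectin family Clec10a, which encodes CD301a, was at 68.2 ± 8.65 and 131 ± 55.9 CPM, with a log2 fold change of 0.94 (adjusted p = 0.0919, edgeR), and its diets overlapped. Cd209g, which shares sequence with Cd209f, fell by 1.18 (SE 0.31, adjusted p = 0.0446, edgeR). Gas6, a ligand of the TAM receptors, and the growth factor gene Igf1 fell by 0.85 and 0.96. Both are also expressed outside macrophages in fat, and which cells carried the change was not tested.

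Genes related to the members by family or domain moved in both directions. Of 25 such paralogues 19 had enough counts to be tested, of which 5 rose, 2 fell and 12 did not pass. Mrc2, the collagen receptor related to Mrc1, rose from 33.5 ± 3.07 to 145 ± 17 CPM (log2 fold change 2.12, SE 0.14, adjusted p = 0.0013, edgeR), beside 0.87 for Mrc1, which did not pass. Cd44, a hyaluronan receptor like Lyve1, rose by 2.92, and the stabilin Stab2 by 2.59, or by 3.19 without ND1. Msr1, a scavenger receptor with a domain in common with Cd163, rose by 3.14, or by 2.47 without HFD3. Havcr2, which encodes TIM-3 of the same family as Timd4, rose by 3.56, but had 2.55 without HFD3 and 4.25 without ND3, and neither of these passed (adjusted p = 0.0536 and 0.0628, edgeR). Resistin (Retn), the adipocyte hormone related to Retnla, fell from 1940 ± 331 to 467 ± 311 CPM (log2 fold change -2.05, SE 0.51, adjusted p = 0.0377, edgeR) and was, like Retnla, highest in HFD2 and lowest in HFD3 on HFD. Its log2 fold change was -2.66 without HFD2. The carbonyl reductase gene Cbr4 fell by 0.57, and Cbr1 had a log2 fold change of -0.46 with an adjusted p of 0.0593 by edgeR.

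The growth factors and cytokines that act on resident macrophages were measured beside them. Of 20 genes of the macrophage growth factor and type 2 cytokine axis, 15 could be tested, of which 5 rose and 1 fell, and 9 did not pass. The receptor Csf1r rose from 160 ± 7.20 to 400 ± 109 CPM (log2 fold change 1.32, SE 0.21, adjusted p = 0.0114, edgeR). Neither of its ligands was called higher. Csf1 was at 87.7 ± 14.1 and 82.0 ± 2.07 CPM (adjusted p = 0.661, edgeR), and Il34 fell from 31.4 ± 2.47 to 19.3 ± 2.70 CPM (log2 fold change -0.71, SE 0.14, adjusted p = 0.0206, edgeR). The cytokine receptor genes Csf2ra, Csf2rb and Il10ra rose by 2.05, 1.01 and 1.77. Stat6, the transcription factor that interleukin-4 and interleukin-13 activate, rose by 0.70 (SE 0.13, adjusted p = 0.0161, edgeR), while Retnla, one of its classical targets, was lower in every HFD library. Arg1, another classical target, was at 1.11 ± 0.209 CPM in ND fat and 4.86 ± 3.43 CPM on HFD (adjusted p = 0.0574, edgeR). This was the opposite sign from Retnla, but Arg1 was scarce, with 25, 18 and 19 counts in ND1 to ND3. It had 91, 23 and 143 counts in HFD1 to HFD3, and HFD2 (1.39 CPM) was close to ND1 (1.35 CPM).

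Marker lists of other cells that epididymal fat can hold were counted in the same fit. Of 9 large peritoneal macrophage markers tested, 2 fell, Gata6 by 1.13 and Garnl3 by 0.95, and 0 rose. The list summed to 147 to 280 CPM in ND fat and 127 to 143 CPM on HFD, but without Bhlhe40, which alone was at 177 CPM in ND1, the ranges were 90.1 to 108 and 65.1 to 104 CPM and overlapped. Gata6 itself, the factor that defines these cells and that mesothelium also expresses, was at 27.3 ± 3.48 CPM in ND fat and 12.5 ± 2.89 CPM on HFD, so it was not at 0 in either diet. Timd4 is also carried by peritoneal macrophages, and their part in its difference was not tested. Of 10 lipid-associated macrophage markers 8 were called higher and 0 lower. Of 10 dendritic cell markers 2 were called higher and 1 lower, and they summed to 167 to 207 CPM in ND fat and 356 to 741 CPM on HFD. Without Sirpa, which other myeloid cells also carry, the sums of the remaining 9 overlapped at 88.1 to 121 and 87.2 to 109 CPM. Of 15 adipocyte markers 1 was called higher and 3 lower by edgeR, and 1 and 5 by DESeq2. Of 10 fibroblast and progenitor markers none was called by edgeR or DESeq2, and 0 had an unadjusted p under 0.05. The epithelial markers tested, 6 of 10, held 0 calls by edgeR and 1 with an unadjusted p under 0.05, and DESeq2 called 0 and gave 2 no adjusted p. All 10 summed to 260 CPM in ND3 and to 29.9 to 43.9 CPM in the other libraries, and the 6 tested to 178 CPM in ND3. Without ND3, 9 of the 10 members had the same sign of fold change, Cd163 being the exception given above.

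For 4 members the protein-coding genes with the most similar log2 CPM over the 6 libraries were listed among 12514 genes, as a description in which diet and composition are shared by all points. Timd4 was closest to Rxra, Cebpa, Hoxc8, Ddt and Fyco1, with Pearson's r from 0.996 to 0.998. Retnla was closest to Acy3, Uri1, Nap1l3, Acsm5 and Ttc8 (r of 0.997 for each), and Lyve1 to Mall, Slc35d2, Tob1, Slc25a33 and Ptk2 (r from 0.988 to 0.997). Cd163 was closest to Ccdc149, Slc28a2, Tnrc6c, Gabbr1 and Tmc7 (r from 0.973 to 0.994). None of these 20 genes is on the macrophage lists used here. Cebpa and Rxra are abundant in adipocytes, and their mean levels were 1322 and 268 CPM in ND fat and 728 and 176 CPM on HFD.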

How the data were processed

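RNA from epididymal fat was sequenced in 3 ND and 3 HFD libraries (NEBNext Ultra RNA kit). The authors deposited raw counts per gene without normalization and FPKM values for the same genes. Their methods name TopHat, Cufflinks and GRCm38, while the submitters' processing notes list CASAVA 1.8, fastp, HISAT2 2.0.5, featureCounts 1.5.0-p3, DESeq2 1.20.0 and human builds. The identifiers are mouse Ensembl, and 54495 of 54532 were found in GENCODE M21. Strandedness of counting is not given in the sources used here.

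HFD was compared with ND by edgeR 4.0.16 (R 4.3.3) with glmQLFit (robust), TMM, filterByExpr and Benjamini-Hochberg adjustment over all genes tested. The SE was derived from the F statistic, and CPM used TMM-scaled totals. The alternatives used limma-voom (limma 3.58.1), DESeq2 1.42.0, other scalings and filters, limma on log2(FPKM + 1) or + 0.1 with at least 0.5 FPKM in 3 libraries, a replicate block and leaving out each library. The code was tested on simulated data. The members, the lists and the rule for named genes (members, list genes and the 5 closest genes for 4 members) were chosen with earlier results of these data known. 1 gene of the list of further resident macrophage genes is not reported here.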

Additional observations from a re-analysis of the deposited data

How the results depend on the processing

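With edgeR 0 members were higher and 1 was lower on HFD. The count of higher members was 3 with DESeq2, 1 with limma-voom and 1 without a filter, and that of lower members 4, 0 and 0. Of lower members there were 9 with scaling to the general macrophage markers, 9 with the same scaling without Lyz2 (chosen after seeing the data) and 0 with limma on log2(FPKM + 1) without a filter. Leaving out 1 library gave 0 to 2 higher members (2 without HFD2) and 0 to 3 lower members (3 without HFD2, 0 without ND1, ND2, ND3 or HFD1, and 1, Cd209f, without HFD3). DESeq2's size factors, library size only, the filter of at least 10 counts in 3 libraries, and log2(FPKM + 1) or log2(FPKM + 0.1) with a filter gave the same counts of 0 and 1, although with FPKM the lower member was F13a1 in place of Cbr2.

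With the replicate number as a block, 0 members were called in either direction, beside 4.46% of all genes lower and 7.51% higher. Same-numbered libraries did not deviate together (correlations of -0.0858, -0.0556 and -0.00532), and they share only a number.

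Scaling to the macrophage markers, and the same without Lyz2, turned the log2 fold changes of Mrc1 (-0.90 and -0.94), Folr2 (-0.97 and -1.01), Vsig4 (-0.30 and -0.35), Stab1 (-0.74 and -0.78), Clec10a (-0.86 and -0.90), Siglec1 (-0.27 and -0.31), Csf1r (-0.42 and -0.46), Csf2rb (-0.70 and -0.73), Il10ra (-0.000179 and -0.034), Stat6 (-0.96 and -0.996), Lyz2 (-0.041 and -0.070) and C1qa (-0.92 and -0.96). Aif1, at 0.23 with TMM, turned to -1.53 with Lyz2 kept among the markers. By construction this scaling lowers nearly all genes. Leaving out 1 library gave a range across 0 for Cd163 (-0.19 to 0.080), Csf1 (-0.18 to 0.042) and Mertk (-0.13 to 0.041), none of them called. Of 31 genes called by edgeR and followed across the settings, the call was lost for 23 without ND1, ND2 or HFD1, 18 without ND3, 4 without HFD3 and 1 without HFD2, for 21 with log2(FPKM + 1) without a filter, 10 with the replicate block, 6 without a filter and 0 with DESeq2. The cause of the other differences between settings was not tested. With 3 libraries per diet and at most 94 counts of Vsig4 in a library, small differences could not be resolved.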

Other observations

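The study lists a quantitative PCR primer pair for Fizz1, the protein name of Retnla. Matched to GENCODE M21 transcripts, the listed forward primer, aggagctgtcattagggacatc, is identical to the listed Arg-1 reverse primer and matched only Arg1, in antisense orientation. The listed reverse primer, ggatgccaactttgaatagg, matched Retnla in sense orientation. As listed, the pair has no primer antisense to Retnla. Whether the listing or the primers used carry this was not tested.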
